A study of Mus musculus with 2 samples.

Results

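The 34 genes described here encode the enzymes that make cholesterol and fatty acids and the proteins that switch those enzymes on and off. They were taken as a list of mouse gene symbols. All 34 were found by symbol among 34719 listed genes. The list holds 18 genes of the mevalonate and sterol steps, 9 genes of fatty acid synthesis, desaturation and elongation, and 5 genes of the control by sterol regulatory element-binding proteins (SREBPs). Stard4 and Lpin1 complete it.

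Cholesterol is built from acetyl-CoA through mevalonate, isoprenoid units and squalene, and fatty acids are built from the same acetyl-CoA by carboxylation and chain growth. SREBPs are membrane-bound transcription factors that SCAP escorts to the Golgi apparatus when sterols are scarce, and INSIG proteins hold that complex back when sterols are plentiful. SREBP-2 is known mainly as an activator of sterol genes, and SREBP-1 of fatty acid genes. In macrophages both arms respond to lipid load and to inflammatory signals.

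The libraries were 1 of macrophages from C57BL/6 mice labelled Kdm2b-/- and 1 of macrophages from C57BL/6 mice labelled wild type. Both were of peritoneal cells collected 4 days after thioglycollate, a broth that recruits macrophages into the cavity, and both received 100 ng/ml of lipopolysaccharide (LPS), a bacterial membrane component. The LPS exposure is 4 h by one label and 3 h by another. The sources used here do not say how the Kdm2b allele was made, in which cells it was lost or how many mice were pooled. With no untreated library used here, every value is a level under LPS and not a response to it.

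About 26800000 fragments lay behind the knockout library and about 27300000 behind the wild-type library. Kdm2b itself stood at 0.326 FPKM in cells labelled knockout and at 0.205 FPKM in wild-type cells, so the transcript was not lower where the label says knockout. "Knockout library" below therefore means the library labelled so. The libraries also differed in sex-linked transcripts. Xist, the noncoding RNA of the inactive X chromosome, was at 0.00398 FPKM in the knockout library and 8.55 FPKM in the wild-type library. Eif2s3y, a Y-linked gene, was at 10.2 FPKM in the knockout library and listed at 0 in the wild-type library. Genotype label and sex of the mice cannot be told apart. All 8 macrophage markers were past 1 FPKM in both libraries, 5 of them higher and 3 lower in the knockout library. Their log2 ratios ran from -0.33 for Cd14 to 0.35 for Adgre1.

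Sequences upstream of 4 genes are shown because of their place in the values below. Hmgcs1 had the highest ratio of the mevalonate steps, Sc5d the lowest of the steps from squalene to cholesterol, Insig1 the lowest of the control genes and Fasn the highest of the fatty acid genes. The stretches come from RefSeq promoter windows of GRCm38.p6 and end before the first annotated start of the gene. They read 5′ to 3′ along the strand of the gene. Capitals mark TCACNCCAC, an SREBP-type element, CCAAT, the box bound by NF-Y, and GGGCGG, the GC box bound by Sp1, each on either strand. In Fasn one CCAAT overlaps its reverse complement. Hmgcs1 lies at chr13:119690101-119690350 on the plus strand, Sc5d at chr9:42264301-42264550 on the minus strand, Insig1 at chr5:28071162-28071362 on the plus strand and Fasn at chr11:120824548-120824797 on the minus strand.
Hmgcs1: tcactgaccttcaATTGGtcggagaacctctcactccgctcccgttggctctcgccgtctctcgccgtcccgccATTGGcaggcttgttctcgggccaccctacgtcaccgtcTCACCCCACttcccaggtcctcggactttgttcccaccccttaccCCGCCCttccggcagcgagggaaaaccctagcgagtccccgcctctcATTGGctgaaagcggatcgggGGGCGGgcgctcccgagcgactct
Sc5d: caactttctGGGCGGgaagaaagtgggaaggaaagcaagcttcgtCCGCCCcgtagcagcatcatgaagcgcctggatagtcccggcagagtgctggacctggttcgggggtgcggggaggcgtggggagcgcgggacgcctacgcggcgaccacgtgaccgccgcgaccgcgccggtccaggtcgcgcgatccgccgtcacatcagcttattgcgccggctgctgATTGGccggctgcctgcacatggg
Insig1: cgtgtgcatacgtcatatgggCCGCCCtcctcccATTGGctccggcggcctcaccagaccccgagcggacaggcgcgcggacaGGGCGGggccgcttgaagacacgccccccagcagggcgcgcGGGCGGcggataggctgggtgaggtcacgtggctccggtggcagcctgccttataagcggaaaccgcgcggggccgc
Fasn: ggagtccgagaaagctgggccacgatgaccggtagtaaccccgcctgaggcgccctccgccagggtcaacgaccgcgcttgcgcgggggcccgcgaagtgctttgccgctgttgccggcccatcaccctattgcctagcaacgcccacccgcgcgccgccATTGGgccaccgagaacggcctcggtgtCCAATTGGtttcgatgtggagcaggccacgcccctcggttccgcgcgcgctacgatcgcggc

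The table of promoter windows, each of 300 bases, held 27 of the 34 genes. TCACNCCAC was found in 1 of the 27, Hmgcs1, and in 1.44% of all 27025 genes of the table. CCAAT was found in 14 of 15 mevalonate and sterol genes, 3 of 6 fatty acid genes and 4 of 5 control genes, against 41.1% of all genes. GGGCGG was found in 14 of the 15, 2 of the 6 and 5 of the 5, against 38.2% of all genes. A match describes the letters in the window only.

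The comparison was the log2 ratio, knockout over wild-type library, of FPKM + 1, a scale that understates changes of low genes. A mean of 1 FPKM or more over both libraries was required, which 31 of the 34 and 9039 genes in all reached. The median of all 9039 ratios was 0.10, so a gene at that value lay in the middle of the transcriptome. With 1 library per group there was no test, and the spread between animals is unknown.

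The sterol genes lay mostly below that middle and the fatty acid genes mostly above it. Of 17 mevalonate and sterol genes, 12 were below 0 and 5 above, with a median of -0.08, whereas all 8 measured fatty acid genes were above 0, with a median of 0.18. Of all genes, 36.8% were below 0 and 63.2% above. Taken against the median of all genes, 15 of the 17 sterol genes were below it and 7 of the 8 fatty acid genes above it. The sterol median turned to 0.0076 when both libraries were scaled to equal totals, with 9 above 0 and 8 below. With equal upper quartiles 14 of the 17 sterol genes were below 0 and 8 of the 8 fatty acid genes above. No sterol gene reached 1.5-fold in either direction.

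By the fixed threshold few members differed. Fasn was the 1 member at least 1.5-fold higher in the knockout library on the FPKM + 1 scale, and 0 were 1.5-fold lower. At 0.974 FPKM in the wild-type library, Fasn passed the floor on the mean only through its 2.23 FPKM in the knockout library. Among all genes 4.7% were 1.5-fold higher and 2.8% lower. At 2-fold on this scale the members counted 0 in both directions, where all genes had 0.863% higher and 1.02% lower. The members' counts lay near these shares.

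**Figure D1:**
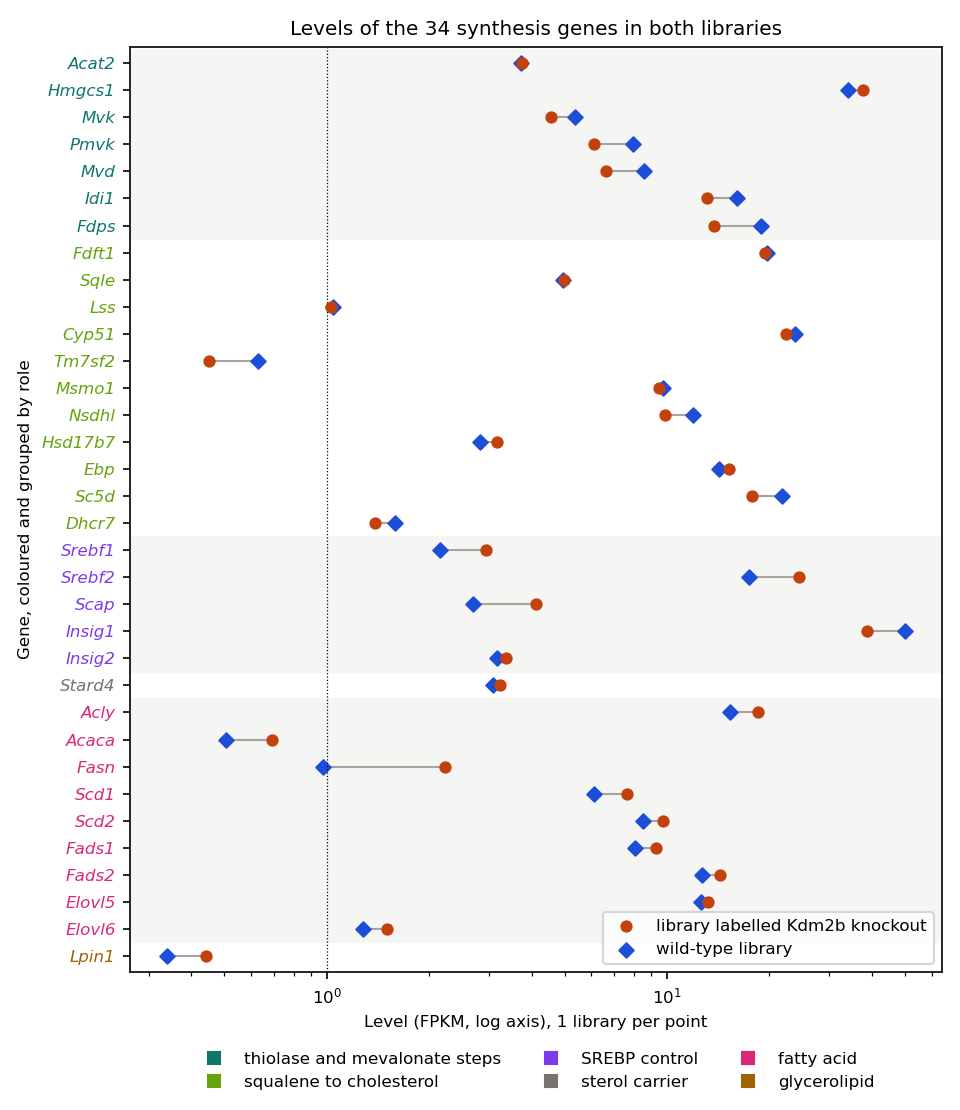
Levels of the 34 genes in FPKM on a log axis, with the knockout library as circles and the wild-type library as diamonds; the dotted line marks 1 FPKM. Insig1 was the most abundant in both libraries at 38.8 and 50.1 FPKM, and the circles of the fatty acid genes all lie right of the diamonds.

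Estimated fragment counts gave each ratio an exact 95% interval, computed on plain FPKM without a pseudocount, which covers counting error only. The interval lay above 0 for 10 members and below 0 for 9 of the 31, against 42.9% and 20.3% of all genes. Among the 17 mevalonate and sterol genes it lay below 0 for 8 and above 0 for 1. Among the 8 fatty acid genes it lay above 0 for 6 and below 0 for 0. Set against the plain median of all genes, 0.13, it lay above for 3 and below for 0 of these 8. Of the 17 mevalonate and sterol genes it lay above that median for 0 and below it for 10. Among all 9039 genes it lay above that median for 2639 and below it for 2801. The fragment counts assume the longest transcript of each gene. With the shortest annotated coding transcript, an assumption added after the data were seen, 5 intervals lay above 0 and 8 below, against 29.4% and 15.4% of 8679 genes with such a transcript. The fatty acid genes then had 3 above 0, and the mevalonate and sterol genes 0 above and 7 below.

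The enzymes from acetyl-CoA to farnesyl diphosphate were the lowest group. Their 7 genes had a median of -0.27, with 5 below 0. Fdps, the synthase of farnesyl diphosphate (ENSMUSG00000059743, chromosome 3, 89093588 to 89101959, GRCm38), was at 13.8 FPKM in the knockout library and 19.0 FPKM in the wild-type library. Its log2 ratio of -0.44 was the lowest of all 31, from about 1089 and 1527 fragments. A further annotated gene overlaps Fdps on its own strand, so its reads are uncertain to that extent. Idi1, the isomerase that supplies the second isoprenoid building block, was at 13.2 FPKM in the knockout library and 16.0 FPKM in the wild-type library (a log2 ratio of -0.27).

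The 3 kinase and decarboxylase genes that turn mevalonate into the first isoprenoid unit all had ratios below 0. Mvk, mevalonate kinase, was at 4.55 FPKM in the knockout library and 5.35 FPKM in the wild-type library (a log2 ratio of -0.19). Pmvk, phosphomevalonate kinase, was at 6.11 FPKM in the knockout library and 7.93 FPKM in the wild-type library (-0.33). Mvd, the decarboxylase, was at 6.63 FPKM in the knockout library and 8.58 FPKM in the wild-type library (-0.33). The plain-ratio intervals of these 3 genes and of Fdps and Idi1 lay below 0, but that of Mvk reached from -0.81 to 0.33 with the shortest coding transcript.

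The gene of the enzyme that opens the mevalonate route stood apart from the steps after it. Hmgcs1, cytosolic HMG-CoA synthase (ENSMUSG00000093930, chromosome 13, 119690379 to 119708260), was at 37.7 FPKM in the knockout library and 33.97 FPKM in the wild-type library. Its log2 ratio was 0.15, close to the median of all genes, and its plain-ratio interval ran from 0.08 to 0.22, or from -0.07 to 0.37 with the shortest coding transcript. It was the most abundant enzyme gene of the list in both libraries. Acat2, the cytosolic thiolase that precedes it, was at 3.75 FPKM in the knockout library and 3.71 FPKM in the wild-type library (a log2 ratio of 0.01).

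The genes from squalene to cholesterol had a median near 0. Of their 10 measured members 7 were below 0 and 3 above, with a median of -0.03, and 9 of the 10 were below the median of all genes. With the trend of all genes in transcript length and GC content removed, their median was -0.19 and 9 of the 10 were below 0. Fdft1, squalene synthase, was at 19.5 FPKM in the knockout library and 19.6 FPKM in the wild-type library. Sqle, squalene epoxidase and a known control point, was at 4.98 FPKM in the knockout library and 4.96 FPKM in the wild-type library. Lss, which closes the ring to lanosterol, was at 1.03 FPKM in the knockout library and 1.04 FPKM in the wild-type library. These 3 successive steps had log2 ratios of -0.01, 0.01 and -0.01, and of -0.18, -0.18 and -0.29 with the trend removed.

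Genes of sterol demethylation lay on both sides of 0, but the plain-ratio intervals of Msmo1 and Hsd17b7 included 0. Cyp51, lanosterol demethylase, was at 22.4 FPKM in the knockout library and 23.8 FPKM in the wild-type library (a log2 ratio of -0.08). Msmo1, methylsterol monooxygenase, was at 9.46 FPKM in the knockout library and 9.74 FPKM in the wild-type library (-0.04). Nsdhl, the decarboxylating dehydrogenase that acts with it, was at 9.88 FPKM in the knockout library and 11.9 FPKM in the wild-type library (-0.25). Hsd17b7, the ketoreductase of the same complex, was at 3.16 FPKM in the knockout library and 2.83 FPKM in the wild-type library (0.12). With the trend removed Cyp51 stood at -0.20, Msmo1 at -0.09, Nsdhl at -0.22 and Hsd17b7 at -0.03.

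The last steps also had ratios on both sides of 0, but the plain-ratio intervals of Ebp and Dhcr7 included 0. Sc5d, lathosterol oxidase, was at 17.8 FPKM in the knockout library and 21.8 FPKM in the wild-type library (a log2 ratio of -0.28), from about 2286 and 2847 fragments. Ebp, the sterol isomerase before it, was at 15.2 FPKM in the knockout library and 14.2 FPKM in the wild-type library (0.09). Dhcr7, the final reductase of one branch, was at 1.38 FPKM in the knockout library and 1.59 FPKM in the wild-type library (-0.12). Tm7sf2, a sterol reductase, stayed under 1 FPKM at 0.450 in the knockout library and 0.627 in the wild-type library. Nsdhl and Ebp are the members on the X chromosome. Their ratios had opposite signs, but the interval of Ebp included 0 and both ratios lay below the median of all genes.

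**Figure D2:**
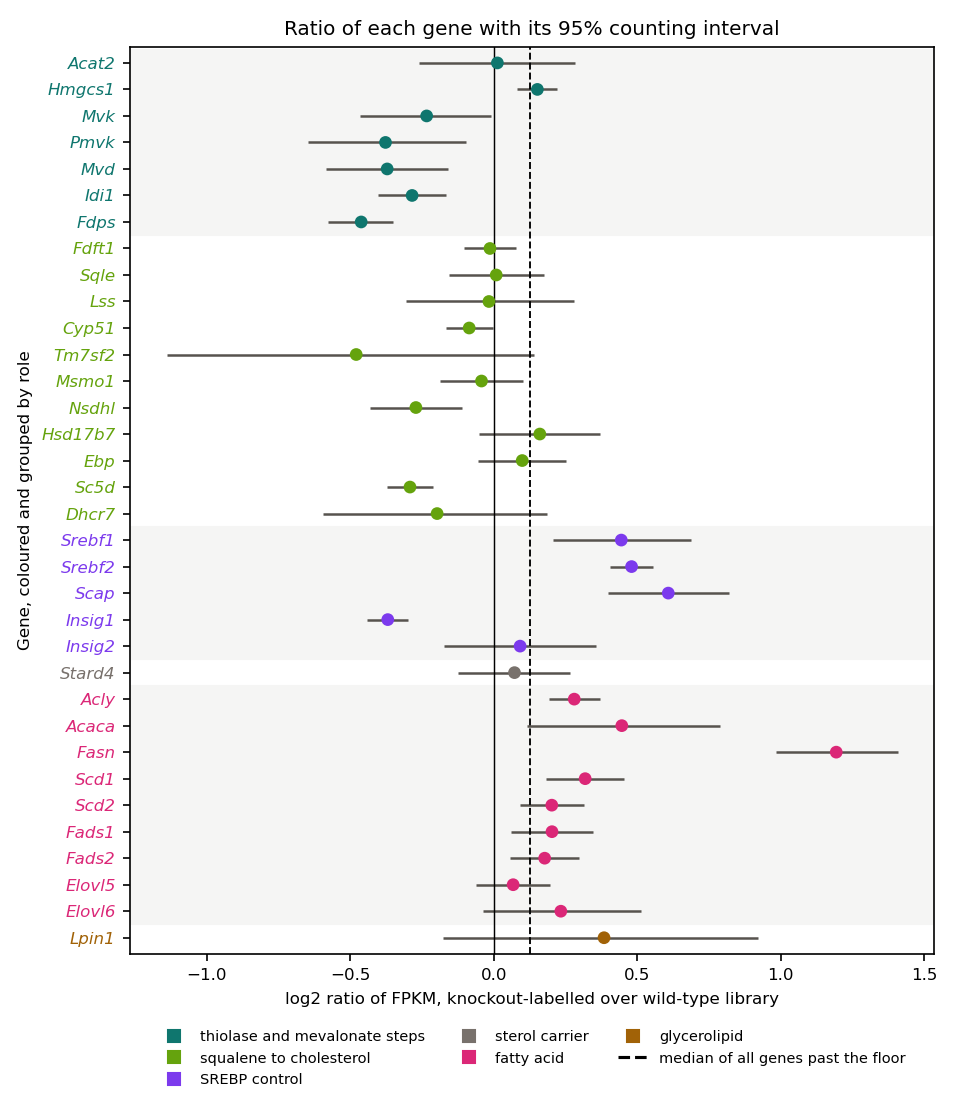
Plain log2 ratio of FPKM, knockout over wild-type library, for the 34 genes, with bars for the 95% counting interval from 1 library each; the solid line is 0 and the dashed line the median of all genes past 1 FPKM (0.13 on this scale). Mvk to Fdps, Sc5d and Insig1 lie left of 0, and Fasn lies farthest right at 1.19.

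The control genes split, with the factors and their escort higher and Insig1 lower. With the length and GC trend removed Srebf1 was at 0.0099, Srebf2 at 0.12 and Scap at 0.14, and Insig1 at -0.44. Srebf2, the gene of SREBP-2 (ENSMUSG00000022463, chromosome 15, 82147181 to 82205379), was at 24.4 FPKM in the knockout library and 17.5 FPKM in the wild-type library, a log2 ratio of 0.46. Scap was at 4.12 FPKM in the knockout library and 2.70 FPKM in the wild-type library (0.47). Srebf1, the gene of SREBP-1, was at 2.94 FPKM in the knockout library and 2.16 FPKM in the wild-type library (0.32). The plain-ratio intervals of all 3 lay above 0, but that of Scap ran from -0.15 to 1.35 with the shortest coding transcript. Srebf1 and Srebf2 overlap other annotated genes on the same strand.

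Insig1, the SREBP-induced brake on SCAP (ENSMUSG00000045294, chromosome 5, 28071363 to 28078662), was at 38.8 FPKM in the knockout library and 50.1 FPKM in the wild-type library. Its log2 ratio was -0.36, with a plain-ratio interval from -0.44 to -0.30 from about 2804 and 3686 fragments. Its longest and its shortest coding transcript are both 2697 bases, so the assumed length could not change this interval. Insig2, its paralog, was at 3.37 FPKM in the knockout library and 3.17 FPKM in the wild-type library (0.07). Insig1 therefore lay with the lower mevalonate genes, and Srebf2 and Scap lay above 0. Stard4, a carrier that moves sterol between membranes, was at 3.23 FPKM in the knockout library and 3.07 FPKM in the wild-type library (0.05).

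Fatty acid synthesis was led by Fasn, which encodes fatty acid synthase (ENSMUSG00000025153, chromosome 11, 120805846 to 120824547). It was at 2.23 FPKM in the knockout library and 0.974 FPKM in the wild-type library, from about 601 and 267 fragments. That is 2.29-fold in plain FPKM, with a log2 interval of 0.99 to 1.41, and 0.71 as log2 of the FPKM + 1 ratio. With the shortest coding transcript the interval was 0.33 to 2.10. Acly, which cleaves citrate to cytosolic acetyl-CoA for both pathways, was at 18.6 FPKM in the knockout library and 15.3 FPKM in the wild-type library (a log2 ratio of 0.26). Acaca, acetyl-CoA carboxylase, was under 1 FPKM at 0.690 in the knockout library and 0.506 in the wild-type library.

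Desaturase and elongase genes were higher by less. Scd1, the desaturase that makes oleate from stearate, was at 7.62 FPKM in the knockout library and 6.11 FPKM in the wild-type library (a log2 ratio of 0.28). Its paralog Scd2, which may share reads with it, was at 9.76 FPKM in the knockout library and 8.48 FPKM in the wild-type library (0.18). Fads1 and Fads2 encode the desaturases of polyunsaturated fatty acids. Fads1 was at 9.29 FPKM in the knockout library and 8.07 FPKM in the wild-type library (0.18). Fads2 was at 14.3 FPKM in the knockout library and 12.6 FPKM in the wild-type library (0.17). With the length and GC trend removed Scd1 stood at 0.07, Scd2 at -0.09, Fads1 at 0.01 and Fads2 at -0.04. With the shortest coding transcript the plain-ratio intervals of Scd1, Fads1 and Fads2 included 0. Scd2 and Fads1 overlap other annotated genes on the same strand.

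On the FPKM + 1 scale the elongase genes lay closest to the median of all genes among the 8 fatty acid genes. This did not hold for Elovl6 on plain FPKM, where it stood at 0.23 and Fads2 at 0.18, against a median of 0.13. Elovl5, the elongase of polyunsaturated chains, was at 13.2 FPKM in the knockout library and 12.6 FPKM in the wild-type library (a log2 ratio of 0.06). Elovl6, the elongase of palmitate, was at 1.502 FPKM in the knockout library and 1.28 FPKM in the wild-type library (0.14). The plain-ratio intervals of both included 0. Lpin1, a phosphatidate phosphatase of glycerolipid synthesis, was under 1 FPKM at 0.443 in the knockout library and 0.339 in the wild-type library.

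Summed over all members of a group, the fatty acid genes came to 77.2 FPKM in the knockout library and 65.9 FPKM in the wild-type library. The mevalonate and sterol genes came to 191 FPKM in the knockout library and 207 FPKM in the wild-type library. The control genes summed to 73.6 FPKM in the knockout library and 75.6 FPKM in the wild-type library. Insig1 set that direction, since the other 4 control genes summed to 34.8 FPKM in the knockout library and 25.5 FPKM in the wild-type library. All genes past 1 FPKM summed to 374718 FPKM in the knockout library and 400286 FPKM in the wild-type library, a ratio of 0.936. The ratio of sums was 0.924 for the mevalonate and sterol genes, near that of all genes. It was 0.973 for the control genes and 1.17 for the fatty acid genes, both above that of all genes.

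Longer transcripts had higher ratios over all genes, and the groups differ in length. The shortest 10% of genes (132 to 1200 bases) had a median log2 ratio of -0.23, and the longest 10% (6249 to 123179 bases) one of 0.29. Spearman's rho between ratio and length was 0.46 over 9017 genes and 0.56 over the 31 members, as a description in which all points share the same pair of libraries. The median longest transcript was 2969 bases for the measured mevalonate and sterol genes, 4629 for the fatty acid genes and 4227 for the control genes. Fasn, at 10050 bases, is the longest of the list.

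**Figure D3:**
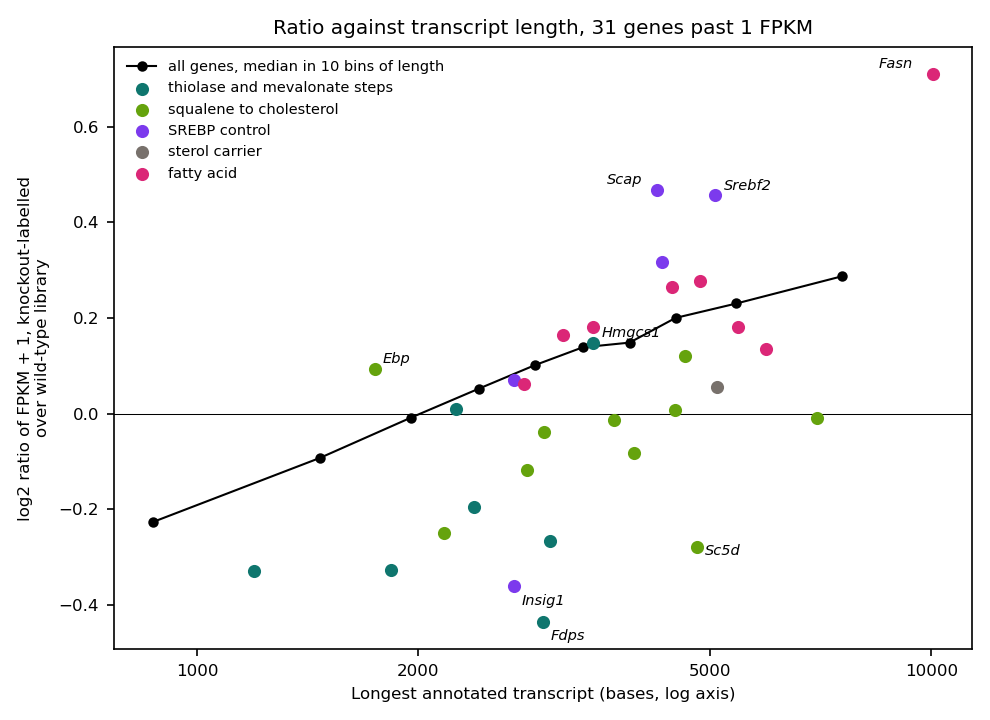
Log2 ratio of FPKM + 1, knockout over wild-type library, against the longest transcript in bases (log axis) for the 31 members past 1 FPKM, with black points for the median of all genes in 10 bins of length. Most sterol points, Insig1 and Fdps lie under the black line, and most fatty acid points lie near it apart from Fasn.

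With the trend in length and GC content removed, so that the median of all genes was 0, the fatty acid and control groups moved to the middle and the sterol group did not. The 8 fatty acid genes had a median of 0.0063, with 4 above 0 and 4 below, and the 5 control genes one of 0.0099. The 17 mevalonate and sterol genes had a median of -0.22, with 15 below 0. Of all genes 49.9% were below 0 and 49.9% above on this scale. The exceptions among the 17 were Ebp (0.11) and Hmgcs1 (0.08).

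Single genes kept unequal distances from 0 after this step. Fdps stood at -0.53, Mvd at -0.44 and Sc5d at -0.42. Fasn stood at 0.29 and no longer passed 1.5-fold. The difference between the medians of the fatty acid and the mevalonate and sterol genes was 0.26 before this step and 0.23 after it. That between the control and the mevalonate and sterol genes was 0.40 before it and 0.23 after it.

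**Figure D4:**
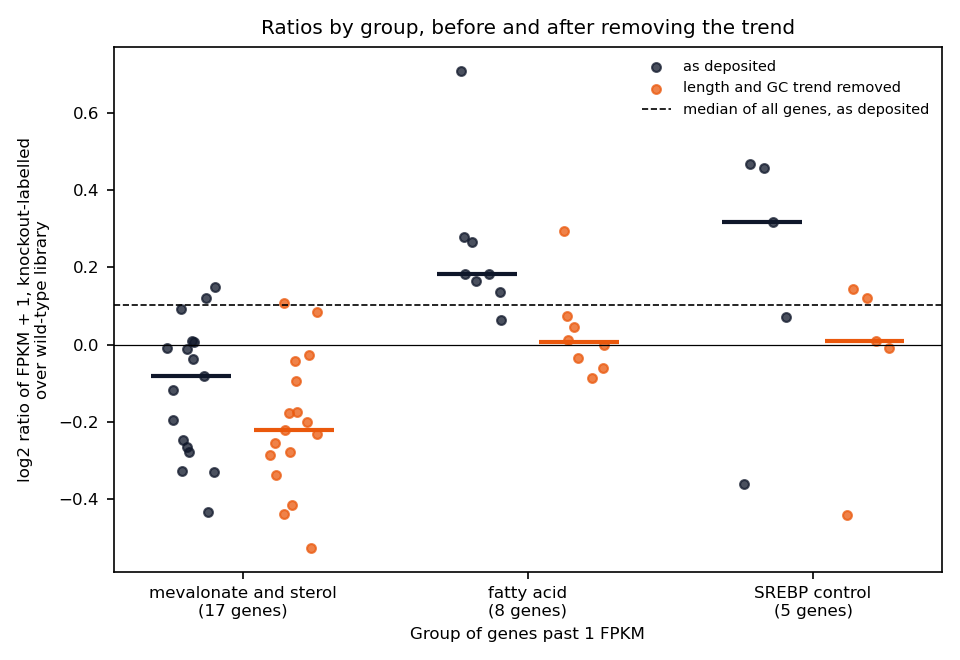
Log2 ratio of FPKM + 1, knockout over wild-type library, in 3 groups of genes past 1 FPKM (1 point per gene, bar at the median), before (dark) and after (orange) removing the trend with length and GC content. The bars of the fatty acid and control genes move to 0.0063 and 0.0099, and that of the mevalonate and sterol genes moves to -0.22.

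A further 35 genes of lipid synthesis, SREBP processing, sterol uptake and efflux that are not in the list served as surroundings. The 30 past 1 FPKM had a median of 0.16, with 3 at least 1.5-fold higher and 0 lower, against 4.7% and 2.8% of all genes. Hsd17b12, the ketoreductase of fatty acid elongation, was at 48.4 FPKM in the knockout library and 29.1 FPKM in the wild-type library (a log2 ratio of 0.71, and 0.77 with the trend removed). Abca1, the cholesterol exporter, was at 15.4 FPKM in the knockout library and 9.31 FPKM in the wild-type library (0.67). Fads3, a desaturase next to Fads2, was at 3.86 FPKM in the knockout library and 2.22 FPKM in the wild-type library (0.59). With the trend removed Abca1 stood at 0.40 and Fads3 at 0.41, both under 1.5-fold.

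The next of these was Mylip, the ligase that marks lipoprotein receptors for degradation, at 0.48. The lowest were Ch25h, which makes 25-hydroxycholesterol, an inhibitor of SREBP processing, at -0.32, the elongation dehydratase gene Hacd2 at -0.29, the liver X receptor gene Nr1h2 at -0.26 and the lysosomal sterol carrier gene Npc2 at -0.16. Ch25h stood at 57.1 FPKM in the knockout library and 71.7 FPKM in the wild-type library.

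Markers of other cells differed between the libraries, and their part in the values above was not tested. Of 9 adipocyte markers, Plin1, Cidec and Retn were listed at 0 in both libraries and Adipoq was at 0.0233 FPKM in the knockout library and 0.0229 FPKM in the wild-type library. Fabp4, which macrophages express too, held most of their sum of 51.9 FPKM in the knockout library and 101 FPKM in the wild-type library. The 10 mesothelial and stromal markers, all past 1 FPKM, summed to 389 FPKM in the knockout library and 341 FPKM in the wild-type library, 7 of them higher in the knockout library. Dcn held most of these sums, and the other 9 came to 138 FPKM in the knockout library and 92.7 FPKM in the wild-type library. Col1a1 was at 16.0 FPKM in the knockout library and 3.63 FPKM in the wild-type library, a log2 ratio of 1.87, and Col1a2 and Col3a1 had ratios of 1.24 and 1.18. The markers of this list did not move together, since Msln, Lum and Krt19 were lower, with ratios of -0.50, -0.35 and -0.31. The 6 B cell markers summed to 2.86 FPKM in the knockout library and 27.3 FPKM in the wild-type library, and the 5 T and NK cell markers were listed at 0 in both. The 5 neutrophil markers summed to 14.8 FPKM in the knockout library and 13.9 FPKM in the wild-type library, nearly all of it S100a8, and 3 of them were listed at 0 in both. The 5 eosinophil and mast cell markers summed to 0.745 FPKM in the knockout library and 1.70 FPKM in the wild-type library. In bulk RNA a smaller share of a cell type and less RNA per cell cannot be told apart.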

How the data were processed

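The values were 1 FPKM value per Ensembl gene and library, as deposited by the authors, per the file headers. HISAT2 2.0.4, StringTie 1.3.0, edgeR and the builds GRCm38.p4 and mm10 stand in the submitters' processing notes without a role. No annotation release, filter or strand marking is given in the sources used here, so reads of a gene cannot be separated from those of an antisense gene. Of the 34 genes, 17 overlap another annotated gene on either strand and 9 on the same strand.

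Symbols, coordinates, transcript lengths and GC content came from GENCODE M21 (GRCm38). A symbol was found for 34344 of 34745 IDs, and values were summed for 24 symbols with several IDs. Fragments were estimated from FPKM times length, which for 92.5% of 1503 low single-transcript genes in the knockout library and 92.2% of 1442 in the wild-type library lay within 0.02 of a whole multiple of 1 step. These gave exact Clopper-Pearson 95% intervals of the plain ratio. PCR copies are not independent molecules, so these intervals hold counting error and nothing else.

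The log2 ratio used a pseudocount of 1 and a floor of 1 FPKM on the mean of both libraries. The trend was removed as the median of 20 bins of length and then of GC content. The functions were tested on simulated data. Alternatives were pseudocounts of 0.1 and 5, 3 scalings, a floor of 5 FPKM or none, a 2-fold threshold and removal of the trend. All members are described. Surrounding genes were named when 1.5-fold apart or among the 4 highest or lowest. The members and lists were chosen with earlier results of these data known. Python 3.11.15, pandas 2.3.3 and SciPy 1.17.1 were used.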

Additional observations from a re-analysis of the deposited data

How the results depend on the processing

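The count of 1 member at least 1.5-fold higher, Fasn, became 2 with a pseudocount of 0.1, which added Scap. It became 0 with a pseudocount of 5, with a floor of 5 FPKM, which left Fasn out, at 2-fold, and after removal of the length and GC trend. The count of members 1.5-fold lower stayed at 0 in every alternative run. The median of the mevalonate and sterol genes was -0.25 at the 5 FPKM floor, where 11 genes were left, and that of the control genes 0.048, where 2 were left. Removing the trend gave a median of 0.0063 for the fatty acid genes and 0.0099 for the control genes. With a pseudocount of 0.1 as well these were -0.0089 for the fatty acid genes and 0.033 for the control genes. Signs of single members changed for 9 of 31 with the trend removed, 6 with the libraries scaled to a median of 0, 4 with equal totals and 2 with equal upper quartiles. The cause of these sign changes was not tested. No paired analysis was possible because each group is 1 library. Depth limits the genes under 1 FPKM, such as Tm7sf2 with about 37 and 53 fragments.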
